A study of Homo sapiens with 7 samples.

Results

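HOX genes code for homeodomain transcription factors and lie in 4 clusters, in each of which nearly all coding genes are read from the same strand. The intergenic stretches of the clusters are also transcribed, and many of the long intergenic non-coding RNAs (lincRNAs) found there run antisense to the coding genes. HOTAIR is the best known of them. It is read from the minus strand of the HOXC cluster between HOXC12 and HOXC11, and is known for binding chromatin-modifying complexes, among them the Polycomb complex that silences HOX genes.

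The probes described here are the lincRNA positions that an expression array places inside the HOX clusters. They were every non-control probe named as a lincRNA whose 60-base position on hg19 lay in 1 of 4 windows. These were 27.1 to 27.3 Mb of chromosome 7 (HOXA), 46.6 to 46.85 Mb of chromosome 17 (HOXB), 54.32 to 54.46 Mb of chromosome 12 (HOXC) and 176.93 to 177.06 Mb of chromosome 2 (HOXD). The rule found 19 of the 8263 lincRNA probes and of the 42405 probes in all. HOXC held 11 (6 on the plus and 5 on the minus strand), HOXB held 6 (5 plus, 1 minus), HOXD held 2 (1 on each strand) and HOXA held none. The nearest lincRNA probes to the HOXA window lay 405.5 kb before and 1728 kb after it. Below, each probe is named by its cluster, its strand and its order along the chromosome on that strand, as in HOXC minus 2.

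The strand was read from the order of the coordinates. All 43 probes of coding HOX genes fell on the strand known to code for them, and the strand suffix in the name matched in 19 of the 19 lincRNA probes. In HOXC and HOXD the coding strand is plus and in HOXB it is minus, so 11 of the 19 probes were antisense to the coding genes and 8 were on the coding strand.

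RNA came from ACHN cells, an established human renal cell carcinoma line, and was hybridised with Cy3 to single-colour Agilent SurePrint G3 arrays, 1 sample per array. The empty vector (EV) group held 4 samples of ACHN cells infected with a pBabe-hygro retrovirus without insert. The HOTAIR group held 3 samples of ACHN cells infected with pBabe-HOTAIR, which carries a PCR-amplified HOTAIR cDNA. Both were selected with hygromycin, so each is a selected cell population that shares virus exposure and drug. Whether the samples came from separate infections or cultures was not stated in the sources used here, and p-values then measure only the spread between these samples. Neither did they give the sequence of the insert, so which of the probed positions lie in it is not known here.

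Every value below is a log2 processed intensity relative to the 75th percentile of its own array, so that 0 is the 75th percentile. Intensities at the 75th percentile ran from 522.5 to 649.1. A probe is called well above background on an array where the scanner software marked its spot so. The arrays shared a single slide, with all 4 EV arrays in one row and all 3 HOTAIR arrays in the other, so an effect of the row cannot be told apart from that of the group. EV 2 stood apart on the first principal component (51.8% of the variance), with a score of 74.0 where the other 6 arrays lay between -29.4 and 21.1, the highest of them HOTAIR 3. The 6 renal epithelial markers measured were well above background on all 7 arrays, whereas 1 of 5 leukocyte markers (CD68), 0 of 3 endothelial markers and 0 of 4 fibroblast markers were. Some of these others were so on fewer arrays, CDH5 on up to 4, PTPRC on up to 3, and ITGAM and PECAM1 on 1. The rest, among them all the fibroblast markers, were so on none. In cells in bulk, fewer cells with an RNA and less of it per cell cannot be told apart.

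Of the 19 lincRNA probes, 12 were well above background on no array. The sequences of the other 7, which were so on at least 1 array, are printed first, with that of the HOTAIR probe beside them. Each is written 5′ to 3′ on the strand that it detects, as deposited, with hg19 positions.
HOXB plus 2, chr17:46781725-46781784: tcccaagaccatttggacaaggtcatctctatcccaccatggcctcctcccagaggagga
HOXC plus 4, chr12:54360098-54360157: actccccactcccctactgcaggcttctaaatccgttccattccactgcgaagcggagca
HOXC minus 1, chr12:54356096-54356155: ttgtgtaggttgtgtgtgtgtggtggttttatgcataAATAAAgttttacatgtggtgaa
HOXC minus 2, chr12:54356419-54356478: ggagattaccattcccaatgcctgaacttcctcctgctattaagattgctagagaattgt
HOXC minus 3, chr12:54356620-54356679: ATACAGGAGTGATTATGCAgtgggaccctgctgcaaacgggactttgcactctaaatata
HOTAIR probe, chr12:54356661-54356720: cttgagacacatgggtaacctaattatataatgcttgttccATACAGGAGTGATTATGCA
HOXC minus 4, chr12:54361115-54361174: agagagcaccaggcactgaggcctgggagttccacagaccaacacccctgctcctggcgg
HOXD minus 1, chr2:177042217-177042276: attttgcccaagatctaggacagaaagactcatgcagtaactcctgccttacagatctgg
Capitals in HOXC minus 3 and in the HOTAIR probe mark the 19 bases that both share, so this pair does not read independent stretches of RNA. Capitals in HOXC minus 1 mark AATAAA, the canonical polyadenylation signal, searched on the detected strand only. It was found in 2 of the 19 probes, HOXC minus 1 and the undetected HOXC plus 3, in 4.14% of all lincRNA probes and in 6.98% of all probes. A match is a run of letters and not a mapped site.

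Detection was sparse on both strands. Of the 19 probes, 7 were well above background on at least 1 array (36.8%), 3 on all 7 arrays (15.8%) and 12 on none. The same shares were 41.0% and 22.6% over 8259 lincRNA probes of the array with values on every array, and 57.9% and 45.3% over all 42391 such probes. On single arrays, between 3 and 6 of the 19 were well above background in EV (6, 3, 4 and 3 on EV 1 to 4) and between 5 and 7 in HOTAIR (7, 6 and 5), counts that overlap. Among the 11 antisense probes 6 were detected on at least 1 array and 2 on all 7, and among the 8 on the coding strand 1 was, on all 7. Of those 6, HOXD minus 1 was detected on HOTAIR arrays alone and HOXC minus 2 and HOXC minus 3 on a single EV array beside the HOTAIR arrays. Other probes in the same windows that are not of coding HOX genes gave 10 of 16 on the antisense and 2 of 5 on the coding strand on at least 1 array, and 6 of 16 and 2 of 5 on all 7.

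Coding HOX probes in the same windows were detected more often, at 12 of 13 on all 7 arrays in HOXA, 10 of 11 in HOXB, 6 of 9 in HOXC and 8 of 10 in HOXD. The base content of detected and undetected lincRNA probes overlapped. GC content ran from 35% to 65% with a median of 45% in the 7 detected probes, and from 41.7% to 60% with a median of 45% in the 12 others.

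**Figure D1:**
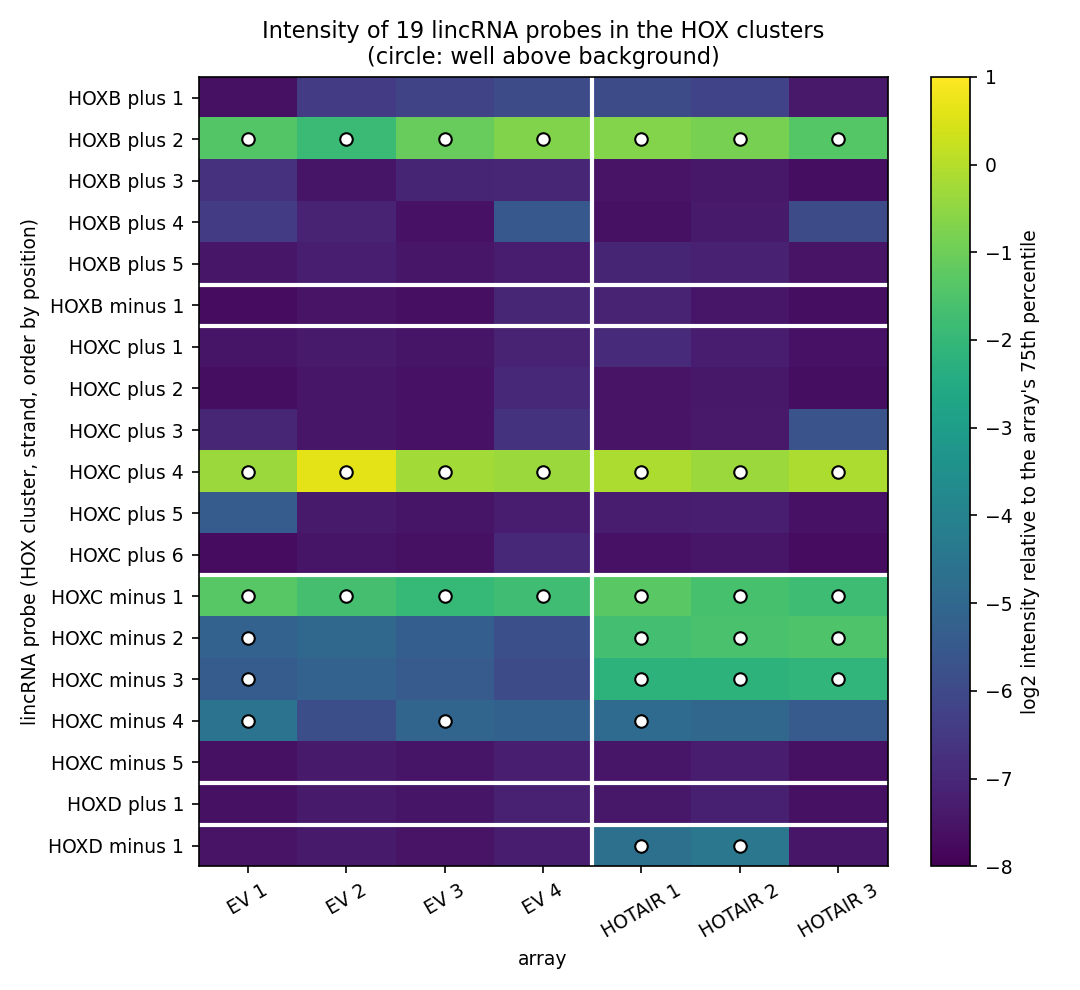
Log2 intensity relative to the 75th percentile of the array for the 19 lincRNA probes (rows, by cluster and strand) on the 4 EV and 3 HOTAIR arrays (columns). A circle marks a spot well above background. HOXB plus 2, HOXC plus 4 and HOXC minus 1 carry circles on all 7 arrays, and 12 rows carry none.

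The names of the probes pair both strands of the same stretch in 5 cases, 4 in HOXC and 1 in HOXD, although the probes mostly read different places within a stretch. The 4 in HOXC are not separate, since the longest (6421 bases) holds the other 3. Probes of the minus strand under these paired names were well above background on up to 7, 4, 3 and 2 arrays in 4 stretches. In the fifth they were so on none. The 4 arrays were EV 1 and all 3 HOTAIR arrays, and the 2 arrays were HOTAIR 1 and HOTAIR 2. Probes of the plus strand under these paired names were well above background on none. The longest stretch nevertheless holds plus-strand signal, because HOXC plus 4, which has a name of its own and was detected on all 7 arrays, lies inside it.

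The HOTAIR probe, which is no lincRNA probe by name, checks the labels. It read -6.29, -6.97, -6.42 and -7.07 on EV 1 to 4, not well above background on any of them. It read -3.12, -3.24 and -2.58 on HOTAIR 1 to 3, well above background on all 3. The groups did not overlap (limma, log2 difference 3.71, SE 0.25, adjusted p = 0.00162). The probe entered the test through the HOTAIR group alone, in which it was high, so the filter favoured this call. Each EV value was also raised to the lowest signal that counted as well above background on its array, where that was above the measured value. The HOTAIR group was then 9.32-fold higher. This is no strict lower limit, since brighter spots could fail the call, as HOXC minus 2 did at -5.01 on EV 2.

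HOXC minus 2 and HOXC minus 3, the nearest positions downstream of the HOTAIR probe on its strand, were the only lincRNA probes in the HOX clusters called by limma, and both rose. Their starts lay 242 and 41 bases further towards the 3′ end of the minus strand than the start of the HOTAIR probe, and they carry the same lincRNA name. Background to this count is that 27 of the 20419 tested probes (0.132%) were called higher in HOTAIR at an adjusted p under 0.05, with a further 7 called lower. Only probes detected on all 4 EV arrays or on all 3 HOTAIR arrays were tested, which 5 of the 19 were. HOXC minus 2 and HOXC minus 3 entered through the HOTAIR group alone, in which they were high, so the filter favoured a rise. With no filter on dim probes both were still called (limma adjusted p = 0.00262 for each). HOTAIR probe and neighbours share a locus and, in part, bases, so their calls are not separate evidence.

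HOXC minus 2 read -5.19, -5.01, -5.32 and -5.80 on EV 1 to 4, with only EV 1 well above background. It read -1.70, -1.57 and -1.48 on HOTAIR 1 to 3, well above background on all 3. Every HOTAIR value lay above every EV value by more than the whole range of either group. The means were -5.33 ± 0.34 (SD, n = 4) in EV and -1.58 ± 0.11 (SD, n = 3) in HOTAIR. The log2 difference was 3.75 (SE 0.19, 95% confidence interval 3.30 to 4.19, limma adjusted p = 0.000487), which is 13.4-fold in this scaling and 3.18-fold after a model-based background correction with an offset (normexp). As processed intensities, the spots gave 9.35 to 17.8 in EV and 186 to 201 in HOTAIR.

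HOXC minus 3 read -5.37, -5.17, -5.42 and -5.92 on EV 1 to 4, again well above background on EV 1 alone. It read -2.20, -2.19 and -2.08 on HOTAIR 1 to 3, well above background on each. As for its neighbour, the groups were far apart and the HOTAIR arrays lay closer together than the EV arrays. The log2 difference was 3.32 (SE 0.18, 95% confidence interval 2.90 to 3.73, limma adjusted p = 0.000487), which is 9.96-fold in this scaling and 2.70-fold after normexp. An exact two-sided permutation test over the 35 splits of the arrays gave p = 0.0286 for each of the pair, the smallest it can give. The EV spots of both were close to background, so the size of the rise depends on how background is handled: normexp lowered the log2 differences to 1.67 and 1.43, and both stayed called. With the replicate number as a block the adjusted p was 0.0772 for both.

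**Figure D2:**
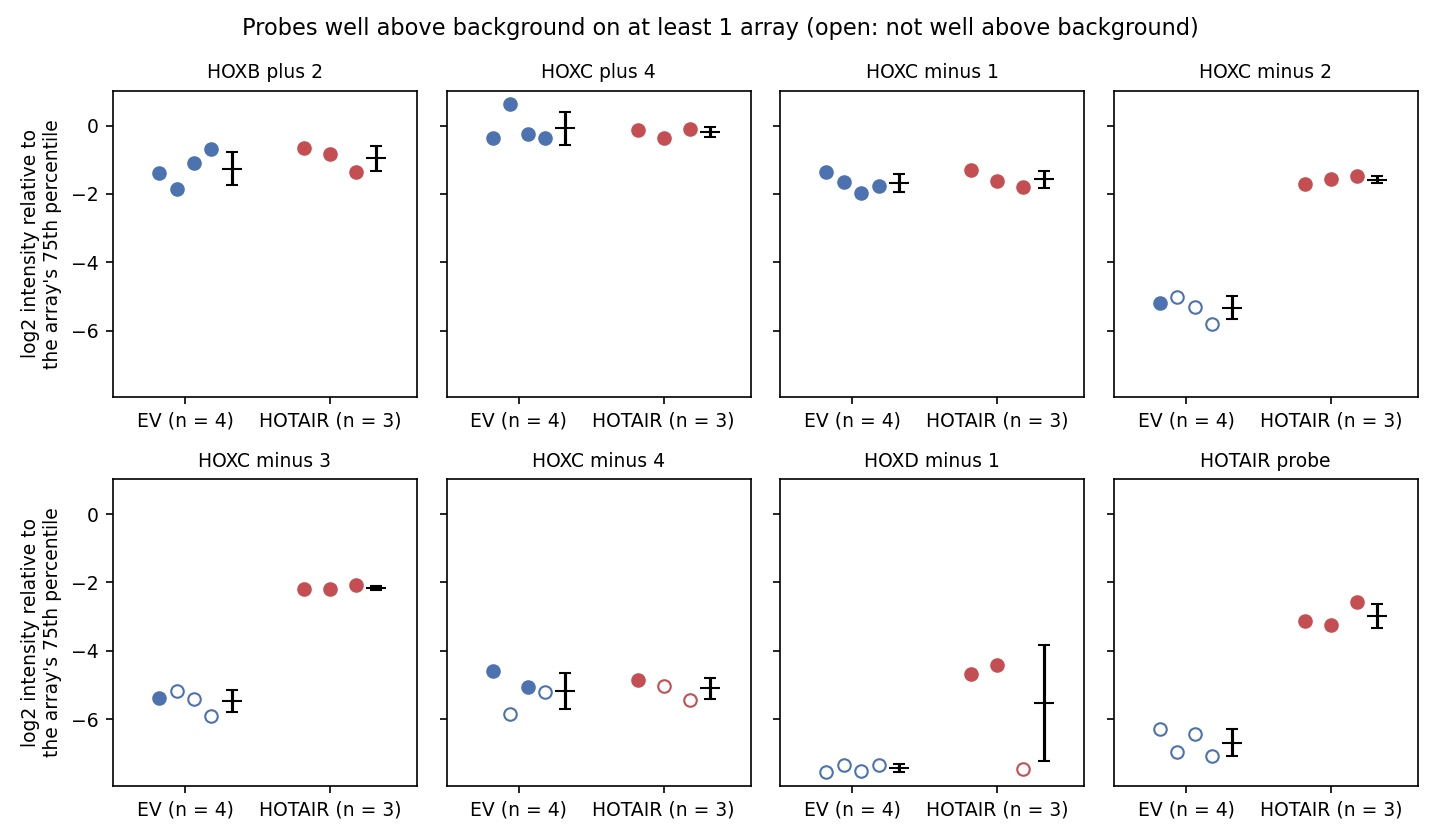
Log2 intensity relative to the 75th percentile of the array for the 7 detected lincRNA probes and the HOTAIR probe, 1 point per array. Filled points are well above background, open points are not, and bars give the mean and SD of each group. HOXC minus 2, HOXC minus 3 and the HOTAIR probe are the panels in which the groups do not overlap.

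HOXC minus 1 lies further towards the 3′ end of the same strand, 263 bases from the end of HOXC minus 2, and was detected on every array, with a difference near 0. It read -1.35, -1.65, -1.97 and -1.78 on EV 1 to 4 and -1.30, -1.63 and -1.80 on HOTAIR 1 to 3. The HOTAIR values fell inside or just above the range of the EV values. The log2 difference was 0.11 (SE 0.18, 95% confidence interval -0.32 to 0.54, limma adjusted p = 0.993), and its sign turned, to -0.03, without HOTAIR 1. This probe thus gave a signal on the 4 EV arrays, on which the HOTAIR probe was not well above background.

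The measured log2 differences of these neighbouring positions are set side by side here as a description only. The change at HOXC minus 2 exceeded that at HOXC minus 1 by 3.64 on the log2 scale (SE 0.27), and leaving out any 1 array gave 3.48 to 3.83. For HOXC minus 3 the excess over HOXC minus 1 was 3.21 (SE 0.25). After normexp the excesses were 1.57 and 1.33. Each had an exact two-sided permutation p of 0.0286, or 0.0429 after Benjamini-Hochberg adjustment over the 6 pairs of these positions and the HOTAIR probe. Differences between the HOTAIR probe, HOXC minus 2 and HOXC minus 3 are not given, since their EV signals lay at or near background. The EV signals of HOXC minus 2 and HOXC minus 3 also enter the excesses over HOXC minus 1, so their size depends on how background is handled. The contrasts were chosen after the values had been seen, and the pair had entered the test through the HOTAIR group. Nothing is therefore read from these p-values, and whether the rise differs between the positions was not tested independently of these values.

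**Figure D3:**
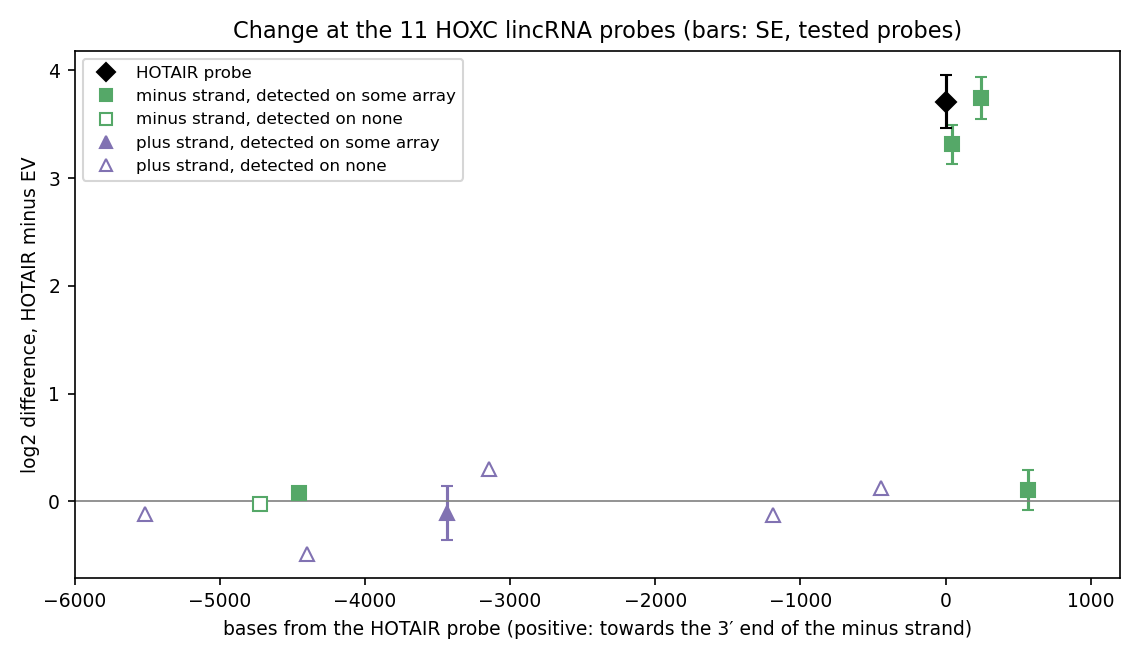
Log2 difference (HOTAIR minus EV) of the 11 HOXC lincRNA probes and the HOTAIR probe against the distance of their starts from that of the HOTAIR probe in bases, positive towards the 3′ end of the minus strand. Squares are minus-strand and triangles plus-strand probes, open symbols were on no array well above background, and bars give the SE of tested probes. The HOTAIR probe and the 2 squares within 242 bases of it lie above 3, and the square at 565 bases lies at 0.11.

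On the other side of the HOTAIR probe, HOXC minus 4 was dim and its groups overlapped. It lay 4394 bases from the end of the HOTAIR probe and read -4.59, -5.84, -5.07 and -5.20 on EV 1 to 4 and -4.85, -5.03 and -5.43 on HOTAIR 1 to 3. Only EV 1, EV 3 and HOTAIR 1 were well above background, so it was not tested across the array (exact permutation p = 0.857). HOXC minus 5, 207 bases beyond it, was on no array well above background.

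On the plus strand of HOXC, the coding strand, HOXC plus 4 was the only 1 of 6 probes detected, and on every array. It read -0.35, 0.62, -0.24 and -0.37 on EV 1 to 4 and -0.12, -0.37 and -0.10 on HOTAIR 1 to 3. EV 2 was the high value and the other 6 arrays lay within the same narrow range in both groups. The log2 difference was -0.11 (SE 0.25, 95% confidence interval -0.70 to 0.48, limma adjusted p = 0.993). Its sign rested on EV 2, without which the difference was 0.12. The plus-strand probes on either side, HOXC plus 3 at a distance of 230 bases and HOXC plus 5 at 900 bases, were detected on no array, nor were those of the flanking coding genes HOXC12 and HOXC11.

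In HOXB, HOXB plus 2 was the only 1 of 6 probes detected, again on every array. It lies between HOXB9 and HOXB13 on the strand antisense to them. It read -1.39, -1.86, -1.09 and -0.70 on EV 1 to 4 and -0.66, -0.85 and -1.37 on HOTAIR 1 to 3. The groups overlapped, with EV 2 the lowest array. The log2 difference was 0.30 (SE 0.29, 95% confidence interval -0.38 to 0.98, limma adjusted p = 0.993), and it lay between 0.10 and 0.51 when any 1 array was left out.

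HOXB plus 3, 4 and 5, which follow on the same strand from 1080 bases on, were detected on no array. The nearest named gene on that strand, C17orf93 (now PRAC2 in RefSeq), 18808 bases on, differed by 0.30 (SE 0.37, limma adjusted p = 0.993). The flanking coding genes HOXB9 and HOXB13 differed by -0.08 and -0.01. The other 5 HOXB probes had processed intensities between 2.75 and 11.4, none well above background. They include HOXB plus 3 and HOXB minus 1, designed against opposite strands of the same place, which share 23 bases as complements. Capitals mark those bases.
HOXB plus 3, chr17:46782865-46782924: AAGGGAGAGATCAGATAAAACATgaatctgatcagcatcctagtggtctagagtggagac
HOXB minus 1, chr17:46782828-46782887: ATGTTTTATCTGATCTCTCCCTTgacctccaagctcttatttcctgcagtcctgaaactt

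HOXD minus 1, antisense to the coding genes between HOXD3 and HOXD1, was detected on HOTAIR arrays only, and on 2 of the 3. It read -4.68 and -4.42 on HOTAIR 1 and HOTAIR 2 but -7.47 on HOTAIR 3, against -7.53, -7.34, -7.51 and -7.33 on EV 1 to 4. The first pair of HOTAIR arrays thus stood apart from all others, while HOTAIR 3 lay in the range of EV. Their processed intensities were 25.1 and 25.7, with spot errors of 4.61 and 4.42 by the scanner software, against 3.12 to 3.50 on the other 5 arrays. The 4 EV values were substitutes that the software sets for signals at background, and such values have no order.

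This probe was not well above background on every array of a group and was not tested across the array. Its exact permutation p was 0.0857. With the EV values raised as for the HOTAIR probe, the mean over all 3 HOTAIR arrays was 1.63-fold higher. This is no strict lower limit either, and it rests on HOTAIR 1 and HOTAIR 2, because the groups overlapped. HOTAIR 3 decided the outcome. Without HOTAIR 3 the probe entered the test, through the HOTAIR group alone, and limma called it (adjusted p = 0.0018). A probe that enters in this way had to differ, and with substitute values in EV its fitted difference is no measure of size. With all arrays and no filter on dim probes the limma adjusted p was 0.958. HOXD plus 1, on the opposite strand of the same stretch, was on no array well above background. LOC401022, the nearest probe on the same strand 4213 bases away, was well above background on all 7 arrays and differed by -0.02 (SE 0.15, limma adjusted p = 0.996). HOXD3 and HOXD1, which flank the stretch, differed by -0.02 and 0.03.

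The 12 probes on no array well above background had log2 values between -7.72 and -5.38, and 64 of their 84 values were substitutes for signals at background. None of the 12 had groups that did not overlap, and their exact permutation p-values ran from 0.0857 to 1. Over all 19 probes, 41 of 76 EV values and 27 of 57 HOTAIR values were such substitutes. For these positions only a signal below the detection level of the array can be stated, in both groups.

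Across the 5 tested probes, 2 had groups that did not overlap, where 7.70% of the 20419 tested probes did so. Both had entered the test through the HOTAIR group, in which they were high, so this count was shaped by the filter and nothing is read from it. Of the 2190 lincRNA probes tested, 3 were called, the pair in HOXC and 1 elsewhere in the genome, all higher in HOTAIR. With EV 2 and HOTAIR 3 left out together, the pair stayed called at differences of 3.80 and 3.38, and HOXD minus 1 entered the test through the HOTAIR group alone, as without HOTAIR 3.

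**Figure D4:**
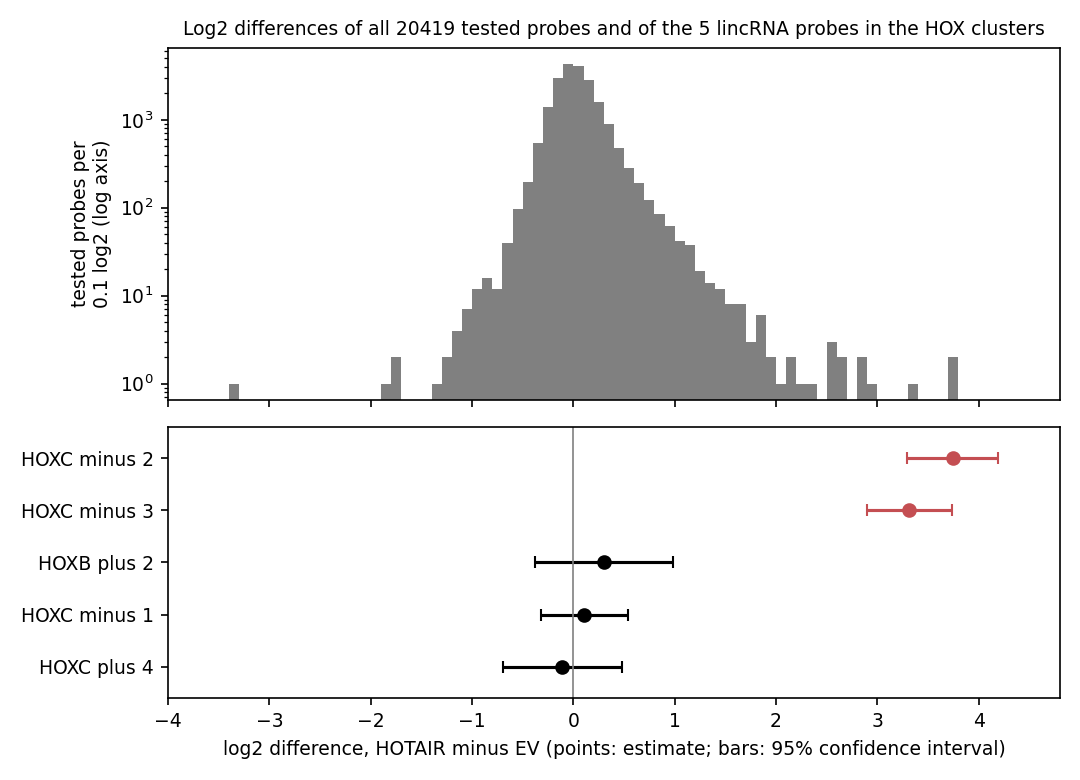
Log2 differences (HOTAIR minus EV) of all 20419 tested probes as a histogram with a log count axis (top), and of the 5 tested lincRNA probes in the HOX clusters with 95% confidence intervals (bottom). The 2 called probes, HOXC minus 2 and HOXC minus 3, lie at 3.75 and 3.32, and the intervals of the other 3 include 0.

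The coding HOX genes and the chromatin factors that act on them gave the setting of these positions. Each gene was read by its brightest tested probe. Of 39 coding HOX genes, 32 were tested, none was called by limma, 2 had an unadjusted p under 0.05, and log2 differences ran from -0.25 to 0.52 with a median of -0.02. That pair was HOXB8, which differed by 0.52 (adjusted p = 0.353), and HOXD13, which differed by 0.38 (adjusted p = 0.426), and in both the groups did not overlap. HOXD9 also had groups that did not overlap, with a difference of -0.17 (adjusted p = 0.971). Of all 20419 tested probes, 1194 had an unadjusted limma p under 0.05, and in 7.70% the groups did not overlap. Nothing is therefore read from HOXB8, HOXD13 and HOXD9. A list of 26 symbols of chromatin regulators of HOX clusters included the Polycomb subunits EZH2, EED and SUZ12 and the demethylase KDM1A. Of these symbols 25 had a probe, since KMT2A is the newer symbol of MLL, and 24 were tested. None was called by limma or had an unadjusted p under 0.05, and differences ran from -0.21 to 0.23 with a median of -0.04. Of the genes on the list of named HOX non-coding genes, 3 had a probe under the listed name (HOTAIR, HOXA11AS and PRAC). PRAC was not tested, and RefSeq lists PRAC1 and PRAC2 as protein-coding. Of the 2 tested, HOTAIR was the 1 called. The other tested, HOXA11AS, differed by 0.05 (SE 0.24, adjusted p = 0.993).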

How the data were processed

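The authors extracted the array images with Agilent Feature Extraction 10.7.3.1 and deposited, for each of the 7 arrays, the processed intensity of 62976 spots (background-subtracted, with low signals replaced by substitute values) and its quality calls. A further deposited table holds the same intensity values to within 0.5%. RNA had been labelled with a low-input kit, and probe positions are on hg19. Processed intensities were converted to log2 and scaled by subtracting the 75th percentile over the 58717 non-control spots of each array. Outlier spots (408 to 600 per array) were removed before replicate spots were averaged by probe. In all, 14 of 42405 probes without a value on every array were dropped. Probes were called detected by the software's call of well above background. Groups were compared with limma 3.58.1 in R 4.3.3 (lmFit and eBayes, Benjamini-Hochberg adjustment over all 20419 tested probes, threshold 0.05), and single probes with an exact two-sided permutation test over 35 splits. The code was tested on simulated data. The methods name a rank product, which was not used here. Its false positive rate comes from permuting values over probes, whereas limma uses the spread between arrays. The number of arrays limits the precision.

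The probes, windows and gene lists were chosen with earlier results of these data known. Probes described singly were those called, those whose groups did not overlap, the brightest 2 detected of each cluster and strand, and those between HOXC12 and HOXC11. Current gene names came from the RefSeq table of GRCh38, and no coordinate was taken from it. Alternatives covered scaling, background correction, the deposited table, filters, moderation, a replicate block, the Mann-Whitney U test named in the methods and leaving out arrays.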

Additional observations from a re-analysis of the deposited data

Results flagged for a closer look

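HOXC plus 4 (chr12:54360098-54360157) was the 1 of 8 probes examined in the EV group in which an array stood far from the others. EV 2 read 0.62 and the nearest other EV array -0.24, a gap of 0.871 of the range of the group. Chance flags about 1 in 20 groups, or 0.4 of the 8. EV 2 is also the array farthest from the others on the first principal component. The part of that array in this value was not tested beyond leaving it out, which gave a log2 difference of 0.12.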

How the results depend on the processing

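HOXC minus 2 and HOXC minus 3 kept their direction under every alternative in which they were tested, with log2 differences of 3.59 to 3.85 and 3.17 to 3.42 when any 1 array was left out. Both lost the call under 2 alternatives. With the replicate block the differences were 3.59 and 3.17 (limma adjusted p = 0.0772 for both). This fit called 0 probes of any kind, with 1073 at an unadjusted p under 0.05. No HOTAIR array shares the number of EV 4, so the block sets EV 4 aside and gives the same differences as leaving it out. Without EV 4 and without a block, both stayed called (limma adjusted p = 0.000671). The block also leaves fewer degrees of freedom for the spread. Whether the replicate numbers pair the samples is not given by the labels. Deviations of same-numbered arrays correlated at 0.39, -0.37 and -0.41, which are too few values to decide it. The exact Mann-Whitney U test gave p = 0.0571 for both (differences 3.75 and 3.32), the smallest it can give. Under a filter that asks for signal on all 7 arrays, 3 lincRNA probes were tested, 0 of which were called or had an unadjusted p under 0.05, and in 0 of which the groups did not overlap, because the called pair was not detected on 3 EV arrays and left the test. The number of lincRNA probes called was 2 to 3 when any 1 array was left out, as was the number whose groups did not overlap, the third being HOXD minus 1 without HOTAIR 3. The sign turned for HOXC plus 4 without EV 2 (0.125, and 0.0789 without EV 2 and HOTAIR 3, a pair chosen after seeing the data) and for HOXC minus 1 without HOTAIR 1 (-0.0292). When any 1 array was left out, the differences ran from -0.20 to 0.12 for HOXC plus 4 and from -0.03 to 0.22 for HOXC minus 1. The number of all probes called, 34, fell to 12 with normexp, 14 without a filter, 22 with the filter on all 7 arrays, 20 with limma's trend and robust options and 9 to 30 when any 1 array was left out. By the software's call of a positive and significant signal, 6 of the 19 probes were detected on all arrays in place of 3. The cause of these changes was not tested. Signals near background limit 12 of the 19 probes, which were well above background on no array and were not tested. Such signals also limit HOXC minus 4 and HOXD minus 1, which were not tested, and the EV side of HOXC minus 2 and HOXC minus 3.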
